A study of Mus musculus with 16 samples.

Results

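The comparison described here is between NFAT5 knockout (KO) and wild-type mouse macrophages, both stimulated with LPS. It rests on 8 of the 16 arrays of the study, 4 labelled KO with LPS and 4 labelled wild type with LPS, chosen by the genotype and treatment in their labels. The cells were bone-marrow-derived macrophages, which are grown in culture from marrow precursors, of mice on the 129sv genetic background. The remaining 8 arrays measured unstimulated cells of the same genotypes, 4 of each. All 19937 named genes were compared, each through its brightest probe set. The labels do not say how the KO allele was made, whether it was confined to some cells, at what dose LPS was given or for how long. Nor do they say if the arrays in a group hold separate mice or cultures, and where they do not, the spread behind each p-value is technical only.

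NFAT5 is a transcription factor related to the calcineurin-regulated NFAT proteins and to NF-kB. It is best known for switching on transporters and enzymes that load cells with organic osmolytes when the surroundings turn hypertonic, through a DNA element called TonE. LPS, a component of the outer membrane of Gram-negative bacteria, is sensed by Toll-like receptor 4. In macrophages this receptor activates NF-kB, AP-1 and interferon regulatory factors, which turn on cytokines, chemokines and enzymes such as the inducible nitric oxide synthase.

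Each value is a log2 expression level on the scale the authors deposited, after robust multi-array averaging (RMA). That step removes any shift shared by all genes and pulls the differences of dim genes towards 0. A difference of 1 on this scale is 2-fold, and every difference below is KO minus wild type. A gene was called when its adjusted p in a limma model of all 16 arrays was under 0.05, with Benjamini-Hochberg adjustment over all genes. Of 16 macrophage markers measured, 15 had a mean level above 8 in both LPS groups, and the mean over the 16 lay between 11.39 and 11.49 in wild-type arrays and between 11.41 and 11.55 in KO arrays. None of 11 lymphocyte markers had a mean above 8 in either group. The mean over 15 neutrophil markers lay between 6.63 and 6.76 in wild-type and between 6.45 and 6.7 in KO arrays, and over 13 dendritic cell markers between 7.58 and 8.1 and between 7.33 and 7.49. The dendritic cell ranges do not overlap, and the 2 called members, Itgax and Ccl22, were lower in KO. Itgax was not called without wild-type array 2 or KO array 3 (adjusted p = 0.1 and 0.0569) or with a sex term (0.268). The part of such cells in the results was not tested. In the neutrophil list Lcn2 alone was called. The neutrophil members differed by -1.91 to 0.50, with a median of 0.002, and 1 was higher and 3 lower at an unadjusted p under 0.05 (limma). The dendritic cell members differed by -2.16 to 0.15, with a median of -0.15. In 3 of them KO lay below wild type without overlap, against 3.59% of all genes. In such bulk samples, fewer cells of a type and less RNA per cell cannot be told apart.

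Sex-linked transcripts did not run alike in the 2 groups. Xist, which is made from the inactive X chromosome of female cells, lay between 11.711 and 12.166 in 5 of the LPS arrays, the 4 wild-type arrays and KO array 4. In KO arrays 1 to 3 it lay between 5.902 and 6.286. Kdm5d, a gene of the Y chromosome, ranged from 7.357 to 7.81 in those 3 arrays and reached at most 5.528 in the other 5. The unstimulated arrays split in the same way, with Kdm5d above Xist in KO arrays 1 to 3 only. With LPS, KO array 4 is the only KO array that matches the wild-type arrays in these transcripts. When it was left out, 325 genes were called higher in KO, and in 275 of them (84.6%) KO array 4 itself lay above all 4 wild-type arrays. Of the 203 genes then called lower, it lay below all 4 wild-type arrays in 184 (90.6%). Over all genes those shares were 28.1% and 27.3%. Its median log2 difference from the wild-type mean was 0.46 over the 325 genes, against 0.64 in the fit without it, and -0.91 against -0.83 over the 203. KO array 4 shares its wild-type comparison arrays with the other KO arrays, so these shares are a description and not a separate test.

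KO macrophages had lower levels of 10 of 31 measured cytokine genes and 9 of 24 chemokine genes with LPS. They had higher levels of 10 of 20 cholesterol synthesis genes. These counts were 9, 5 and 6 with a sex term, and 3, 3 and 4 with the replicate number added as a block. Every wild-type array has Xist above Kdm5d, so the sex term rests on KO array 4 against KO arrays 1 to 3 in each state. For a call lost with this term, lost precision and a difference tied to sex cannot be told apart. With LPS, 358 genes were higher in KO (1.8% of all genes) and 251 were lower (1.26%). More of the lower genes passed 2-fold, with 85 (0.426% of all genes) against 31 of the higher ones (0.155%). The groups did not overlap in 336 of the higher genes (1.69%) and 236 of the lower ones (1.18%). The median log2 difference of all genes was -0.01. Of 858 genes on the 50 lists of pathways and cell types used here, 60 were called higher and 86 lower. A fit of the 7724 genes with a group mean of at least 8 called 461 higher and 286 lower, so brighter genes were called more often. With the replicate number as a block, 726 genes were called higher and 503 lower. Without wild-type array 2 these counts were 169 and 139, without KO array 1 200 and 194, without KO array 3 246 and 166, and without wild-type array 1 305 and 163. In the 10 arrays of the whole study with Xist above Kdm5d, 32 were higher and 57 lower, a fit that has a single KO array per treatment and takes its spread from the other groups.

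**Figure D1:**
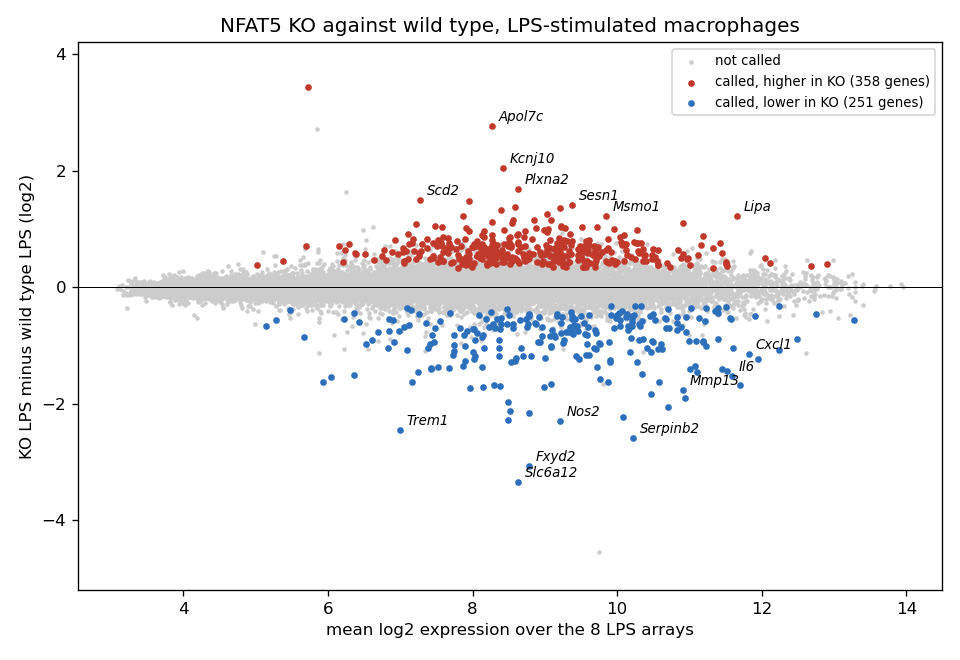
Each point is 1 of 19937 genes, with its mean log2 level over the 8 LPS arrays on the horizontal axis and its log2 difference, KO minus wild type, on the vertical axis. Coloured points are the 358 genes called higher and the 251 called lower, grey points were not called. The named genes at the bottom, Slc6a12 and Fxyd2, lie at -3.34 and -3.07, and Apol7c, near the top, at 2.77.

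Nfat5 itself, on chromosome 8, was lower in the KO arrays. Its log2 level was 9.95, 10.56, 9.97 and 9.80 in wild-type arrays 1 to 4 and 9.29, 9.29, 9.12 and 8.67 in KO arrays 1 to 4. The groups did not overlap, and KO array 4 was the lowest of the 8. The difference was -0.98 ± 0.162 (SE, 4 arrays against 4), and an exact two-sided permutation test over the 70 splits of the 8 arrays gave p = 0.0286, the smallest it can give. In unstimulated cells Nfat5 stood at 9.15, 9.41, 9.34 and 9.67 in wild-type arrays and 8.93, 9.03, 9.20 and 8.99 in KO arrays. There the groups overlapped, and the difference of -0.36 was not called (adjusted p = 0.602, exact permutation p = 0.0571). The change between states was not called either (adjusted p = 0.277). The sources used here do not give which exons the probe set and the KO allele share, so the signal left in KO arrays is no check of the labels. Of the other NFAT family genes, Nfatc2 was higher in KO, by 0.59 ± 0.143 (adjusted p = 0.0267), a call lost without any 1 of wild-type arrays 1 to 3 or KO arrays 2 to 4 (0.0555 to 0.0925).

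Genes of the osmotic stress response held the 2 largest differences among the named genes that were lower in KO, Slc6a12 and Fxyd2. Of 21 measured members, 8 were lower, counting Nfat5, and 1 was higher, with a median log2 difference of -0.31. Sequence from in front of 3 genes that were lower in KO is printed here, because a TonE match or a kappaB match lies within 250 bases of their starts. The stretches are from RefSeq, assembly GRCm38.p6, each running 5′ to 3′ on the plus strand up to the annotated start, with matches to the TonE, kappaB and AP-1 letters on either strand in capitals. They are the osmolyte transporter gene Slc6a12 (chr6:121342324-121342573), the cytokine gene Il6 (chr5:30012864-30013113) and the chemokine gene Cxcl1 (chr5:90890995-90891244).
Slc6a12: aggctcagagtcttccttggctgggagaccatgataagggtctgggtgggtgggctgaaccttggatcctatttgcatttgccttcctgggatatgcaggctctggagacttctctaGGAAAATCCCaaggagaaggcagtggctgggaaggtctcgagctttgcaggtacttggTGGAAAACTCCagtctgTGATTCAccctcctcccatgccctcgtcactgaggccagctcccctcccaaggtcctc
Il6: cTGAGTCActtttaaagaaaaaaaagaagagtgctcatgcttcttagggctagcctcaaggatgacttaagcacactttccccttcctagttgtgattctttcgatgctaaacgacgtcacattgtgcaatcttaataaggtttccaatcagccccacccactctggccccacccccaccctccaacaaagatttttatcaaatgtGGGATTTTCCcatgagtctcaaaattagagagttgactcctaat
Cxcl1: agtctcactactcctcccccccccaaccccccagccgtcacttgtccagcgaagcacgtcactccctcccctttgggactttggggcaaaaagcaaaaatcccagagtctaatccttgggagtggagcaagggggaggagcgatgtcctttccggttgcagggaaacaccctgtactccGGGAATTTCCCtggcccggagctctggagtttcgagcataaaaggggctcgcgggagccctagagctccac
The Slc6a12 stretch belongs to 1 of 5 annotated starts of the gene, and its capitals mark TGGAAAACTCC at -75 from that start, which matches the TonE consensus. They also mark GGAAAATCCC at -133, a kappaB match on the other strand, and TGATTCA at -58, an AP-1 match. In Il6 they mark TGAGTCA at -249, an AP-1 match, and GGGATTTTCC at -44, a kappaB match. In Cxcl1 the capitals join 2 overlapping kappaB matches, GGGAATTTCC at -71 and GGAATTTCCC at -70. A match is a description of these letters and not evidence of binding.

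Slc6a12, the betaine transporter, stood at 10.38, 10.02, 10.58 and 10.23 in wild-type arrays 1 to 4 with LPS and at 6.87, 6.62, 7.31 and 7.06 in KO arrays 1 to 4. Fxyd2, a regulatory subunit of the sodium pump, stood at 10.71, 9.84, 10.27 and 10.45 and 7.04, 7.33, 7.23 and 7.38. In both genes every KO array lay more than 2 units below every wild-type array. The differences were -3.34 ± 0.181 (10.1-fold) and -3.07 ± 0.152 (8.41-fold), with adjusted p = 5.75e-09 and 2.34e-09. Both genes differed by similar amounts in unstimulated cells, by -3.26 and -3.82, and the change between states was not called for either (adjusted p = 0.963 and 0.113).

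The other osmotic genes differed less. Slc5a3, the myo-inositol transporter, had levels of 7.59, 8.23, 7.83 and 7.72 in wild-type arrays against 7.24, 7.38, 6.89 and 6.60 in KO arrays with LPS. The groups lay close together without overlapping, and the difference of -0.82 ± 0.17 was smaller than the -1.99 in unstimulated cells, a change between states of 1.17 (adjusted p = 0.0218). Lrrc8d, a subunit of the volume-regulated anion channel, differed by -0.80 ± 0.168, and Hspa1a, an inducible heat shock protein, by -1.19 ± 0.184. Slc38a2, a transporter of small neutral amino acids, differed by -0.93 ± 0.222, and Atp1b3, a beta subunit of the sodium pump, by -0.36 ± 0.0824. Pla2g15, a lysosomal phospholipase, was the member that was higher, by 0.68 ± 0.105. Slc6a6, the taurine transporter, was not called, at 0.01 ± 0.0824 (adjusted p = 0.998). Without wild-type array 2, 5 members were called lower, and Slc5a3 was not (adjusted p = 0.0534). Slc38a2 lost its call without wild-type array 1, 2 or 3 or KO array 3 or 4 (0.054 to 0.0888), and Atp1b3 lost it without wild-type array 1 or 2 or KO array 2 or 4 (0.0525 to 0.0744) and with a sex term (0.0954).

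Of 9 measured enzymes and transporters of nitric oxide and arginine, 3 were lower in KO, namely Nos2, Slc7a2 and Arg2, and 0 were higher (limma, and 0 higher also at an unadjusted p under 0.05). Over these 9 the median log2 difference was -0.07. Nos2, the inducible nitric oxide synthase, stood at 10.55, 10.40, 10.02 and 10.44 in wild-type arrays 1 to 4 with LPS and at 7.80, 7.82, 7.91 and 8.67 in KO arrays 1 to 4. KO array 4 was the highest of the KO arrays and still lay more than 1 unit below the lowest wild-type array. The difference was -2.30 ± 0.162, a 4.93-fold lower level (adjusted p = 2.2e-07). In unstimulated cells Nos2 averaged 6.75 in wild type and 6.75 in KO, and the change of the genotype difference between states was -2.29 (adjusted p = 7.35e-05). Slc7a2, a cationic amino acid transporter that carries arginine, had levels of 12.18, 12.57, 12.22 and 12.001 in wild-type arrays against 11.06, 11.48, 10.67 and 10.02 in KO arrays. KO array 4 was here the lowest, and the difference was -1.44 ± 0.271 (adjusted p = 0.00499). Arg2, the mitochondrial arginase, which consumes arginine, was lower by -1.21 ± 0.267, a call that was lost without wild-type array 1 or 2 or KO array 3 (adjusted p = 0.0513 to 0.0734). Arg1, the cytosolic arginase, was not called, at -0.02 ± 0.0846, and neither were the arginine transporter Slc7a1, at -0.05 ± 0.163, Asl, an enzyme of arginine synthesis, at 0.09 ± 0.106, and Gch1, which makes the cofactor of nitric oxide synthase, at -0.10 ± 0.116 (adjusted p = 0.998, 0.998, 0.954 and 0.947).

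Of 15 measured prostaglandin and leukotriene genes, 3 were lower in KO and 1 was higher, with a median log2 difference of -0.23. Pla2g4a, the phospholipase that frees arachidonic acid, differed by -1.05 ± 0.16, and Ptges, the inducible prostaglandin E synthase, by -1.23 ± 0.172. Levels of Ptges were 12.89, 12.65, 12.22 and 12.46 in wild-type arrays against 11.09, 10.96, 11.65 and 11.62 in KO arrays, so KO arrays 3 and 4 lay closer to the wild-type arrays than KO arrays 1 and 2. Ptgs2, the inducible cyclooxygenase, differed by -0.56 ± 0.131, a call lost without wild-type array 2 or 3 or KO array 3 or 4 (adjusted p = 0.0668 to 0.104) and with a sex term (0.138). Ptger4, a receptor for prostaglandin E2, was higher in KO, by 1.02 ± 0.187. Its level was 9.24, 8.75, 9.27 and 9.56 in wild-type arrays against 10.18, 9.87, 10.33 and 10.54 in KO arrays, with no overlap.

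**Figure D2:**
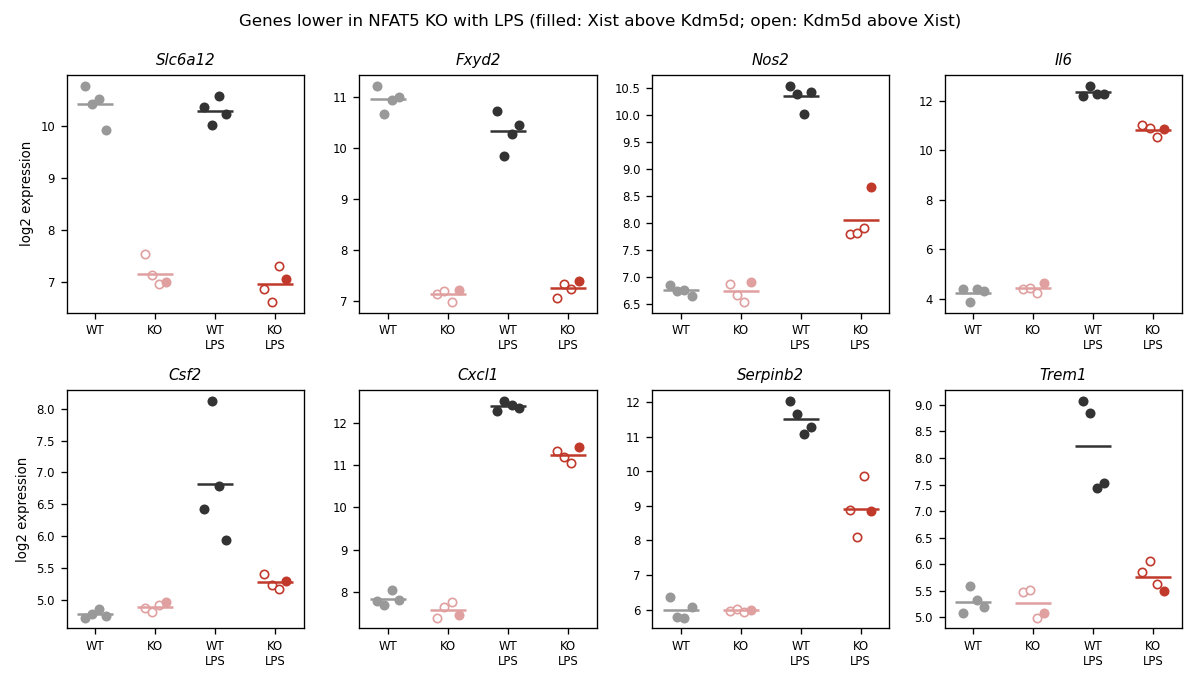
Log2 level of 8 genes that were lower in KO with LPS, with 1 point per array, a line at each group's mean, and 4 arrays in each of the 4 groups (WT is wild type). Filled points are arrays with Xist above Kdm5d and open points the reverse. Slc6a12 and Fxyd2 are separated by genotype in both states, the other 6 genes with LPS only. In Nos2 the filled KO array with LPS, at 8.67, is the highest of its group.

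Cytokine genes were lower in KO with LPS in 10 of 31 measured members, and 0 were higher. At an unadjusted p under 0.05 the limma counts were 16 lower and 2 higher. Over the list the median log2 difference was -0.42. Il6, an inducer of fever and of acute phase proteins, stood at 12.21, 12.61, 12.29 and 12.28 in wild-type arrays and 11.01, 10.90, 10.53 and 10.84 in KO arrays. All 4 KO arrays lay more than 1 unit below the wild-type arrays, and the difference was -1.53 ± 0.136 (adjusted p = 4.54e-06). Il1a, the membrane-associated form of interleukin 1, had levels of 12.54, 12.87, 12.55 and 12.19 in wild-type arrays against 11.13, 10.99, 10.50 and 10.83 in KO arrays, again with no overlap, and differed by -1.68 ± 0.279 (adjusted p = 0.00175). Neither gene was called between genotypes in unstimulated cells.

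Of the colony-stimulating factors, Csf2 and Csf3 were lower and Csf1, the macrophage factor, was not called, at 0.43 ± 0.171 (adjusted p = 0.274). Csf2, which encodes the granulocyte-macrophage factor, varied widely among wild-type arrays with LPS, at 6.43, 8.12, 6.79 and 5.94, and narrowly among KO arrays, at 5.40, 5.23, 5.16 and 5.30. Those KO levels lie within 1 unit of the unstimulated means of 4.77 and 4.89, where RMA compresses differences. The difference was -1.55 ± 0.282 (adjusted p = 0.00388). Csf3, the granulocyte factor, had levels of 8.73, 8.57, 7.64 and 7.60 in wild-type arrays against 6.67, 6.56, 6.78 and 6.88 in KO arrays, and differed by -1.41 ± 0.21 (adjusted p = 0.000769). Wild-type arrays 1 and 2 were about 1 unit above wild-type arrays 3 and 4 in this gene. Osm, a cytokine of the interleukin 6 family, split the wild-type arrays in the same way, at 8.90, 9.14, 8.30 and 8.21 against 7.42, 7.52, 7.41 and 7.24 in KO, with a difference of -1.24 ± 0.158 (adjusted p = 0.000188).

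Interleukin 12 subunits were lower, with Il12a at -1.21 ± 0.278 and Il12b at -1.35 ± 0.299. Il12a lost its call without wild-type array 1 or 2 or KO array 3 or 4 (adjusted p = 0.0593 to 0.0934) and Il12b without wild-type array 2 or KO array 3 or 4 (0.0506 to 0.077). Il1b, the secreted interleukin 1, and Tnf were not called, at -0.42 ± 0.263 and -0.23 ± 0.0931 (adjusted p = 0.683 and 0.294). Both genes were bright, with wild-type means of 13.04 and 13.41 with LPS. Whether the range of the arrays narrows differences at such levels was not tested. The Il1b levels did not overlap, at 12.94, 13.19, 13.07 and 12.98 in wild-type arrays against 12.58, 12.64, 12.58 and 12.68 in KO arrays, and a fit of the 8 LPS arrays alone called the gene, with adjusted p = 0.0253 and, when the replicate number was a block, 0.0157. Il10, an anti-inflammatory cytokine, was at 0.02 ± 0.321 (adjusted p = 0.998), with overlapping groups. Of the cytokine list, 5 members were called lower without KO array 3 and 6 without wild-type array 1 or 2. With a sex term 9 were called, with the sex term and the replicate block 3, and in the 10 arrays with Xist 2.

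Chemokines were lower in 9 of 24 measured members and higher in 0 (limma, with 13 lower and 2 higher at an unadjusted p under 0.05), with a median log2 difference of -0.54. Cxcl1, a neutrophil attractant, stood at 12.29, 12.51, 12.41 and 12.35 in wild-type arrays and 11.32, 11.20, 11.04 and 11.42 in KO arrays. Both groups were tight, every KO array lay below every wild-type array, and the difference was -1.15 ± 0.108 (adjusted p = 7.52e-06). Cxcl13, an attractant of B cells, was at 11.89, 12.10, 11.52 and 11.43 and 9.21, 10.30, 9.51 and 9.71, a difference of -2.05 ± 0.316 (adjusted p = 0.000946), and it was also lower in unstimulated KO cells, by -1.76 (adjusted p = 0.00686). Cx3cl1, the membrane-bound fractalkine, differed by -1.19 ± 0.237, Ccl4 by -0.68 ± 0.124, and Ccl22, a ligand of CCR4, by -2.16 ± 0.45. Ccl22 was called although its groups overlapped, since wild-type array 4, at 8.33, lay below KO array 1, at 8.57.

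The monocyte attractants showed a pattern of their own within the KO group. Ccl2 stood at 11.26, 11.40, 10.83 and 10.64 in wild-type arrays 1 to 4 and 9.38, 9.62, 10.01 and 10.64 in KO arrays 1 to 4, and Ccl7 at 11.28, 11.23, 10.60 and 10.55 and 9.13, 8.97, 9.91 and 10.54. In both genes KO array 4 was level with wild-type array 4, and KO arrays 1 and 2 were the lowest. The differences were -1.12 ± 0.238 (adjusted p = 0.0122) and -1.28 ± 0.254 (adjusted p = 0.00742). Neither was called with a sex term (adjusted p = 0.194 and 0.134), and Ccl2 lost its call when wild-type array 2 was left out (0.0587), and also when KO array 1 was (0.052). Cxcl2, another neutrophil attractant, and Ccl5 were not called, at -0.47 ± 0.164 and -0.53 ± 0.387 (adjusted p = 0.172 and 0.793), and neither was the interferon-induced Cxcl10, at 0.47 ± 0.325 (adjusted p = 0.763). Cxcl2 and Ccl5 were bright too, with wild-type means of 13.455 and 13.325, and whether differences narrow at such levels was not tested. With the sex term 5 chemokines were called lower, with the replicate block added to it 3, and in the arrays with Xist 1.

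Receptors for these ligands moved both ways. Of 32 cytokine and chemokine receptors, 4 were higher and 2 lower, against 1.8% and 1.26% of all genes. The median log2 difference was -0.07. Il6st, the signalling chain shared by the interleukin 6 family, was higher, at 9.43, 9.33, 9.40 and 9.41 in wild-type arrays against 10.05, 9.98, 9.89 and 9.82 in KO arrays. The 4 wild-type values lay within a narrow band below all KO values, and the difference was 0.54 ± 0.0795 (adjusted p = 0.00069). Cxcr4, the receptor for Cxcl12, was higher by 0.60 ± 0.116. Il17ra, a chain of the interleukin 17 receptor, was lower by -0.90 ± 0.179 (adjusted p = 0.00742). The remaining calls were Il6ra and C3ar1, higher by 0.45 ± 0.102 and 0.40 ± 0.0918, and Tnfrsf1b, lower by -0.46 ± 0.0967. All 3 were lost without wild-type array 2 (adjusted p = 0.057, 0.0962 and 0.0595), Il6ra also without wild-type array 3 or KO array 1 or 2 (0.0635 to 0.0737), and C3ar1 without KO array 1 or 3 (0.0608 and 0.0731). With a sex term neither Il6ra nor C3ar1 was called (0.11 and 0.115). Of the receptors, 2 were called higher without wild-type array 2 or KO array 1.

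Early response genes, most of them transcription factors and phosphatases induced within a short time of a stimulus, were lower in 10 of 30 members and higher in 0. At an unadjusted p under 0.05 limma gave 16 lower and 2 higher, and the median log2 difference was -0.31. Fosl2, a subunit of AP-1, stood at 10.67, 10.63, 10.01 and 10.29 in wild-type arrays and 9.12, 8.95, 8.95 and 9.09 in KO arrays. The KO arrays spanned less than 0.2 units and lay below all wild-type arrays, with a difference of -1.37 ± 0.123 (adjusted p = 4.54e-06). Phlda1 was at 8.52, 8.49, 8.40 and 8.71 and 7.28, 7.15, 7.06 and 7.55, a difference of -1.27 ± 0.11 (adjusted p = 3.47e-06). Nr4a1, an orphan nuclear receptor, differed by -1.19 ± 0.144, Ier3 by -1.17 ± 0.19, and the zinc finger factors Egr1 and Egr2 by -0.82 ± 0.123 and -0.85 ± 0.137. Ier3 was not called with a sex term (adjusted p = 0.052). Fos, the classical AP-1 subunit, was not called, at 0.16 ± 0.138 (adjusted p = 0.876). With the sex term and the replicate block 5 members were called, and in the arrays with Xist 2.

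NF-kB subunits, their inhibitors and related genes were lower in 4 of 20 members, with a median log2 difference of -0.17. The subunits Rel, Rela, Relb and Nfkb2 were not called (adjusted p = 0.795, 0.998, 0.876 and 0.116). Traf1, an adaptor of tumour necrosis factor receptors, was lower with LPS by -0.98 ± 0.151 (adjusted p = 0.000946) and without LPS by -1.74 (adjusted p = 2.41e-06). Nfkbid, a nuclear inhibitor-like protein of NF-kB, was lower by -0.63 ± 0.123, a call lost with a sex term (adjusted p = 0.0512). The other calls were Tnfaip3 and Tnip1, lower by -0.54 ± 0.139 and -0.38 ± 0.0861, and both were lost with a sex term (adjusted p = 0.208 and 0.07). The list held 2 calls without wild-type array 1 or 2 or KO array 2 or 3. Among the feedback brakes on cytokine signalling and mRNA, Cish was lower by -1.38 ± 0.196, and Zfp36l2, an mRNA decay factor, was higher by 0.89 ± 0.152 (adjusted p = 0.0005 and 0.00226).

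Interferon-response genes did not share in the lower levels. With LPS, 0 of 33 measured members were called (limma, with 4 higher and 0 lower at an unadjusted p under 0.05), and the median log2 difference was 0.08. Without LPS, 16 of the 33 were lower in KO, against 0.863% of all genes, with a median of -0.83. Usp18, a brake on interferon receptor signalling, shows both states. Its unstimulated levels were 11.30, 10.89, 10.60 and 10.37 in wild-type arrays against 8.67, 9.56, 9.10 and 9.42 in KO arrays, with no overlap, and with LPS they were 12.34, 12.49, 12.51 and 12.37 and 12.19, 12.23, 12.36 and 12.46, with overlap. The change of its genotype difference between states was 1.49 (adjusted p = 0.0103).

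MHC class II genes, which present peptides to helper T cells, were lower in KO with LPS in 4 of 12 measured members, and 1 member, the protease gene Ctss, was higher, by 0.36 ± 0.0922 (adjusted p = 0.0401). The list's median log2 difference was -0.10, against -0.80 without LPS, where 6 members were lower. H2-Aa had levels of 12.48, 12.49, 11.83 and 11.82 in wild-type arrays against 10.73, 10.54, 10.84 and 10.89 in KO arrays with LPS. Wild-type arrays 1 and 2 were the highest, and no KO array reached a wild-type array. The difference was -1.41 ± 0.206, against -2.28 without LPS, and the change between states was not called (adjusted p = 0.209). H2-Eb1 and H2-Ab1, chains of the same kind of molecule, differed by -1.45 ± 0.217 and -1.08 ± 0.164, and Cd74, the invariant chain that guides them, by -0.89 ± 0.141. Ciita, their master regulator, behaved otherwise. With LPS its levels were 6.88, 6.80, 7.13 and 7.23 in wild-type arrays against 7.35, 7.31, 7.44 and 7.33 in KO arrays, a difference of 0.34 ± 0.15 that was not called (adjusted p = 0.363), while without LPS it was -1.88 (adjusted p = 1.19e-06). In the 10 arrays with Xist, 0 MHC class II members were called, and with the sex term and block 1 was.

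Genes of the plasminogen system and of clotting were among the larger differences, with 4 of 18 lower and 0 higher (limma, with 5 lower and 4 higher at an unadjusted p under 0.05) and a median log2 difference of -0.09. Serpinb2, an inhibitor of plasminogen activators, stood at 12.04, 11.67, 11.09 and 11.28 in wild-type arrays against 8.88, 8.10, 9.88 and 8.85 in KO arrays. KO array 3 was the highest KO array and lay 1 unit or more below the wild-type arrays. The difference was -2.59 ± 0.268 (6.04-fold, adjusted p = 2.16e-05). Plaur, the urokinase receptor, differed by -1.49 ± 0.231, F3, the tissue factor that starts clotting, by -0.76 ± 0.101, and F10, coagulation factor X, by -0.76 ± 0.129.

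Matrix and vascular genes were lower in 4 of 22 matrix members, with a median log2 difference of -0.07. Mmp13, a collagenase, had levels of 12.28, 12.34, 11.21 and 11.35 in wild-type arrays against 10.12, 9.43, 10.13 and 10.41 in KO arrays, and wild-type arrays 1 and 2 were about 1 unit above 3 and 4. It differed by -1.77 ± 0.255, Timp1, an inhibitor of such proteases, by -1.63 ± 0.271, and the matrix protein fibronectin, Fn1, by -1.72 ± 0.221 (adjusted p = 0.000621, 0.00178 and 0.000204). Mmp13 and Timp1 were not called with the sex term and the replicate block (adjusted p = 0.159 and 0.11), and Timp1 lies on the X chromosome. Outside the lists, Edn1, the precursor of the vasoconstrictor endothelin 1, was lower by -1.66 ± 0.195 (adjusted p = 9.73e-05). Adm, the precursor of the vasodilator adrenomedullin, was lower by -1.35 ± 0.215.

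Several receptors, an antimicrobial gene and metabolic genes were among the larger single differences. Of 22 TREM and C-type lectin receptors 2 were lower and 2 higher, and of 16 scavenger receptors 1 was lower and 3 higher. Of 19 acute phase and antimicrobial genes 1 was lower and 0 higher. At an unadjusted p under 0.05 the limma counts for those 19 were 3 lower and 0 higher. Over all genes 1.26% were called lower and 1.8% higher. Trem1, a receptor that amplifies inflammatory signalling, stood at 9.07, 8.86, 7.43 and 7.53 in wild-type arrays against 5.86, 6.06, 5.63 and 5.501 in KO arrays. Wild-type arrays 1 and 2 were well above 3 and 4, and the KO values lay near the unstimulated means of 5.30 and 5.27. The difference was -2.46 ± 0.287 (adjusted p = 9.16e-05). Olr1, a receptor for oxidised low-density lipoprotein, was at 9.84, 9.96, 9.22 and 9.31 and 8.20, 7.30, 7.44 and 6.88, with the lowest value in KO array 4, and differed by -2.13 ± 0.211 (adjusted p = 1.37e-05). Lcn2, which binds bacterial iron carriers, differed by -1.91 ± 0.219, Slc7a11, the cystine transporter, by -1.41 ± 0.236, and Upp1, a uridine phosphorylase, by -2.29 ± 0.264.

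**Figure D3:**
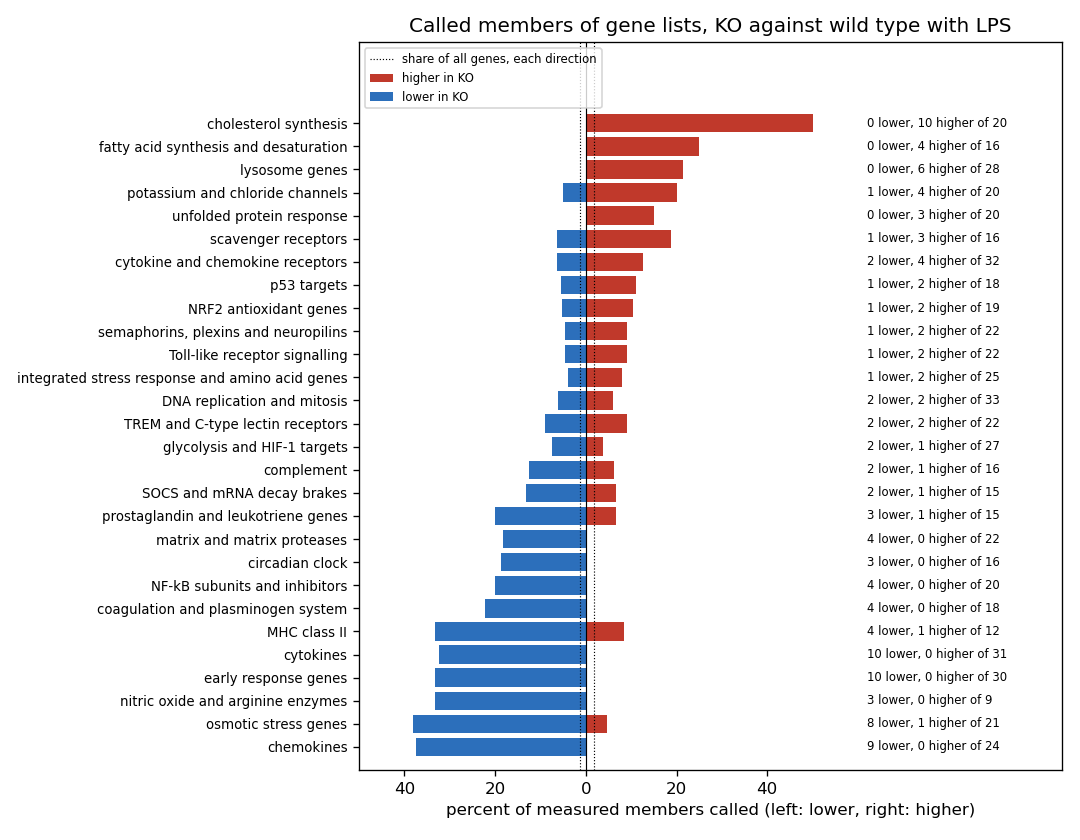
Share of measured members called lower (left, blue) and higher (right, red) in KO with LPS, in percent, for the 28 gene lists with at least 3 called members. Dotted lines mark the shares over all genes, 1.26% lower and 1.8% higher. The longest bars are cholesterol synthesis, with 10 of 20 higher, and the osmotic, chemokine, early response, cytokine, MHC class II and nitric oxide lists, with between 32.3% and 38.1% lower.

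Cholesterol synthesis genes were higher in KO with LPS. Of 20 measured members 10 were called higher and 0 lower (limma, with 17 higher and 0 lower at an unadjusted p under 0.05), and all 20 differences were above 0, from 0.05 to 1.21, with a median of 0.54. Without LPS 0 of the 20 were called and the median was -0.20. The sterol enzyme Msmo1 stood at 9.62, 8.82, 9.26 and 9.28 in wild-type arrays against 10.29, 10.18, 10.62 and 10.74 in KO arrays. KO arrays 3 and 4 were the highest, wild-type array 2 the lowest, and the difference was 1.21 ± 0.151 (adjusted p = 0.000156). Fdft1, squalene synthase, was at 9.14, 8.26, 8.65 and 9.06 and 9.55, 9.41, 10.05 and 10.14, a difference of 1.01 ± 0.198 (adjusted p = 0.00684). In unstimulated cells Fdft1 differed by -0.42 (adjusted p = 0.635), and its change between states was 1.43 (adjusted p = 0.0172). Fdps, which makes farnesyl diphosphate, was higher by 0.84 ± 0.179 (adjusted p = 0.0127), and Sqle, squalene epoxidase, by 0.82 ± 0.175.

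The regulators of this pathway were measured in part. Srebf2, the transcription factor that drives it, was not called, at 0.05 ± 0.142 (adjusted p = 0.998), and neither was Insig1, which holds that factor in check, at 0.56 ± 0.211 (adjusted p = 0.237). The count of cholesterol synthesis members called fell to 3 without KO array 3, to 4 without wild-type array 2 and to 6 without KO array 4. It was 6 with a sex term, 4 with the replicate block added, 3 in the arrays with Xist, and 3 in arrays 1 to 3 of each group. Sqle was not called without wild-type array 2 or KO array 3 (adjusted p = 0.0639 and 0.0504), while Msmo1, Fdft1 and Fdps were called without any 1 of the 8 arrays.

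Fatty acid genes were higher in 4 of 16 members, with 0 lower (limma, with 5 higher and 0 lower at an unadjusted p under 0.05) and a median log2 difference of 0.07. The 4 are Fads1 and Fads2, the desaturases of polyunsaturated fatty acids, Fasn, fatty acid synthase, and Scd2, a desaturase of saturated fatty acids. Fads2 stood at 7.80, 7.30, 8.002 and 7.75 in wild-type arrays against 8.49, 8.46, 9.32 and 9.04 in KO arrays, with no overlap, and differed by 1.12 ± 0.204 (adjusted p = 0.00389). Fads1 and Fasn differed by 0.71 ± 0.123 and 0.54 ± 0.111. Scd2 varied more, at 6.77, 5.83, 6.62 and 6.88 and 7.79, 7.03, 8.54 and 8.74, a 2.83-fold higher level, and it lost its call without wild-type array 1, 2 or 3 or KO array 1, 3 or 4 (adjusted p = 0.0635 to 0.169). Among proteins that move sterols, Scarb1, the receptor for high-density lipoprotein, was higher by 0.94 ± 0.162. Abcg1, a cholesterol exporter and the 1 called member of 10 LXR targets, was higher by 0.77 ± 0.167, a call lost without KO array 1 (0.0597) and with a sex term (0.171).

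Lysosomal genes were higher in 6 of 28 members, with 0 lower (limma, with 15 higher and 0 lower at an unadjusted p under 0.05), and the median log2 difference was 0.23. The groups did not overlap in 9 members, all with KO above. Over all genes, KO lay above without overlap in 4.15% and below in 3.59%. Lipa, the acid lipase that frees cholesterol from lipoprotein esters, stood at 10.91, 10.32, 11.41 and 11.52 in wild-type arrays against 12.37, 12.18, 12.21 and 12.29 in KO arrays. The KO arrays were tight, the wild-type arrays spread over more than 1 unit with array 2 the lowest, and the difference was 1.23 ± 0.179 (adjusted p = 0.000676). Gusb, beta-glucuronidase, was higher by 0.61 ± 0.0998. Galc, a galactosylceramidase of the lysosome that is not on the list, stood at 8.12, 7.61, 8.08 and 8.16 and 9.22, 8.95, 9.13 and 9.07, and was higher by 1.10 ± 0.12 (adjusted p = 3.89e-05). The other called members were Hexa, Atp6v1a, Npc1 and Ctss, with differences from 0.36 to 0.50, and each of them lost its call when any 1 of at least 3 arrays was left out, and with a sex term. The count was 2 without KO array 1 or 2 or wild-type array 2 and 3 without KO array 3, and with a sex term or in a fit of the 8 LPS arrays it was also 2. With the sex term and the replicate block 1 was called, and in the arrays with Xist 0 were.

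**Figure D4:**
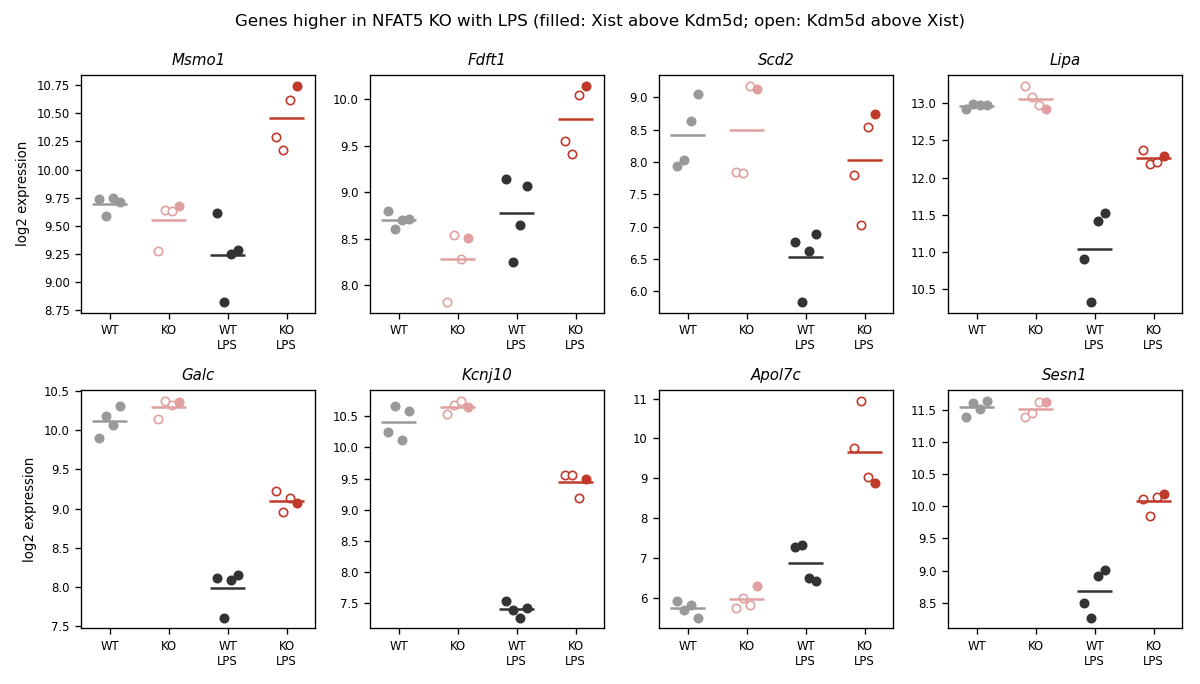
Log2 level of 8 genes that were higher in KO with LPS, with 1 point per array and a line at each group's mean, for 4 arrays in each of the 4 groups (WT is wild type). Filled points are arrays with Xist above Kdm5d and open points the reverse. In Lipa, Galc, Kcnj10 and Sesn1 both LPS groups lie below the unstimulated groups and the KO group lies between, while Apol7c is highest in KO with LPS.

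Several of the largest differences that were higher in KO belonged to genes whose levels were lower with LPS than without in both genotypes. Kcnj10, an inwardly rectifying potassium channel, averaged 10.41 in unstimulated wild-type cells and 10.66 in unstimulated KO cells. With LPS it stood at 7.53, 7.38, 7.27 and 7.41 in wild-type arrays against 9.55, 9.56, 9.19 and 9.49 in KO arrays. All KO arrays were more than 1 unit above all wild-type arrays, and the difference was 2.05 ± 0.12 (4.14-fold, adjusted p = 1.27e-08). Of 20 potassium and chloride channel genes, 4 were higher and 1 lower, against 1.8% and 1.26% of all genes. Without wild-type array 2, 2 of these channel genes were higher. Sesn1, a stress-induced regulator of nutrient signalling, averaged 11.54 and 11.52 without LPS. With LPS it was at 8.50, 8.27, 8.92 and 9.01 in wild-type arrays against 10.12, 9.85, 10.14 and 10.20 in KO arrays, a difference of 1.40 ± 0.138 (adjusted p = 1.23e-05). Slc43a2, a transporter of large neutral amino acids, followed the same order, with 11.35 and 11.46 without LPS, 8.53 and 9.88 with LPS and a difference of 1.35 ± 0.129.

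Some single receptors were higher in KO. Cd300a, an inhibitory receptor for phospholipids, stood at 7.96, 7.81, 7.89 and 7.95 in wild-type arrays against 9.66, 9.76, 8.57 and 9.11 in KO arrays. KO arrays 1 and 2 were the highest, the groups did not overlap, and the difference was 1.37 ± 0.188 (adjusted p = 0.000372). Lair1, an inhibitory receptor for collagen, was higher by 1.16 ± 0.198, and Clec4a3, a C-type lectin, by 0.97 ± 0.162. Mertk, a receptor for the uptake of dying cells, was higher by 0.79 ± 0.16, a call lost with a sex term (adjusted p = 0.0915). Plxna2, a receptor of semaphorins, was higher by 1.68 ± 0.22, and Sema4a, a semaphorin, was lower by -1.07 ± 0.137 (adjusted p = 0.000241 and 0.000201).

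Apol7c showed the largest difference of the named genes that were higher in KO. It encodes a member of the apolipoprotein L family. Its levels with LPS were 7.26, 7.33, 6.495 and 6.43 in wild-type arrays against 9.76, 10.93, 9.04 and 8.87 in KO arrays. KO array 2 was the highest, KO array 4 the lowest of the KO group and still above all wild-type arrays. The difference was 2.77 ± 0.327 (6.82-fold, adjusted p = 9.73e-05), against 0.23 without LPS. Sex-linked genes, predicted genes and clone names are left out of this ranking.

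Genes of survival and the cell cycle moved singly. Bcl2l11, the pro-apoptotic BIM, was higher by 0.64 ± 0.0956 (adjusted p = 0.000774). Bcl2l1, which encodes the anti-apoptotic BCL-XL, was lower by -0.79 ± 0.188, a call lost without wild-type array 1 or 2 or KO array 3 or 4 (0.0541 to 0.114). These 2 were the calls among 16 members of their families. Ccnd2, a cyclin of the G1 phase, was lower by -1.57 ± 0.304 (adjusted p = 0.00606), at 10.96, 11.55, 9.97 and 9.74 in wild-type arrays against 8.78, 9.53, 8.59 and 9.02 in KO arrays, where wild-type arrays 1 and 2 stood above the others. Among 33 replication and mitosis genes, 2 were higher and 2 lower. Over all genes 1.8% were called higher and 1.26% lower.

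Several pathways held at most 3 calls each, beside 1.8% of all genes called higher and 1.26% called lower. Brighter genes were called more often, with 461 higher and 286 lower in a fit of the 7724 genes with a group mean of at least 8. Small counts in lists of well-expressed genes are to be read beside that fit too. Oxidative phosphorylation had 0 called of 29 (limma, with 4 higher and 0 lower at an unadjusted p under 0.05), with a median log2 difference of 0.15, and MHC class I with the immunoproteasome had 0 of 13 (1 higher and 0 lower unadjusted), with a median of 0.02. Of 27 glycolysis and HIF-1 genes, 2 were lower and 1 higher, with a median of -0.15. Of 16 circadian clock genes 3 were lower (18.8%), and 1 with a sex term. Among them Cry2, a repressor of the clock, differed by -0.71 ± 0.106. Of 20 genes of the unfolded protein response 3 were higher (15%), which is 1 without any single array other than wild-type array 1, and 0 with a sex term. Toll-like receptor signalling genes were mostly not called, with 2 of 22 higher and 1 lower. Tlr13, a sensor of bacterial RNA, was higher by 0.76 ± 0.143 (adjusted p = 0.00499).

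Most of these differences were called with LPS and not without. Of the 609 genes called with LPS (3.05% of all genes), 40 were also called between unstimulated KO and wild-type cells, where 28 genes were higher (0.14% of all genes) and 172 lower (0.863%). The overlap is 6.57% of the LPS calls and 20% of the 200 unstimulated calls. The comparisons share no arrays, but both have the same split of sex-linked transcripts, whose part in the overlap was not tested. Of the 40, 33 were lower in both states, 6 higher in both, and 1 turned over. Genes lower in both states included Slc6a12, Fxyd2, Slc5a3, Traf1, Pla2g4a and the MHC class II genes Cd74, H2-Aa, H2-Ab1 and H2-Eb1. Another was Arhgef6, a gene of the X chromosome that encodes an activator of Rac and Cdc42. Arhgef6 differed by -1.73 ± 0.147 with LPS and by -1.52 without. The 358 genes that were higher with LPS had a median log2 difference of 0.60 there and of -0.01 without, and the 251 lower genes -0.79 and -0.09. A gene called in 1 state only is not thereby shown to differ between states. Tested directly, the change was called in 257 of all genes (1.29%) and in 169 of the 609 genes called with LPS. Among the 53 genes of the lists and rankings that were looked at singly, which include the highest-ranked ones, it was called in 32. The 609 genes were chosen by their LPS difference, which is part of this change. Selection therefore raises the share among them, and it also widens the gap between the medians above.

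**Figure D5:**
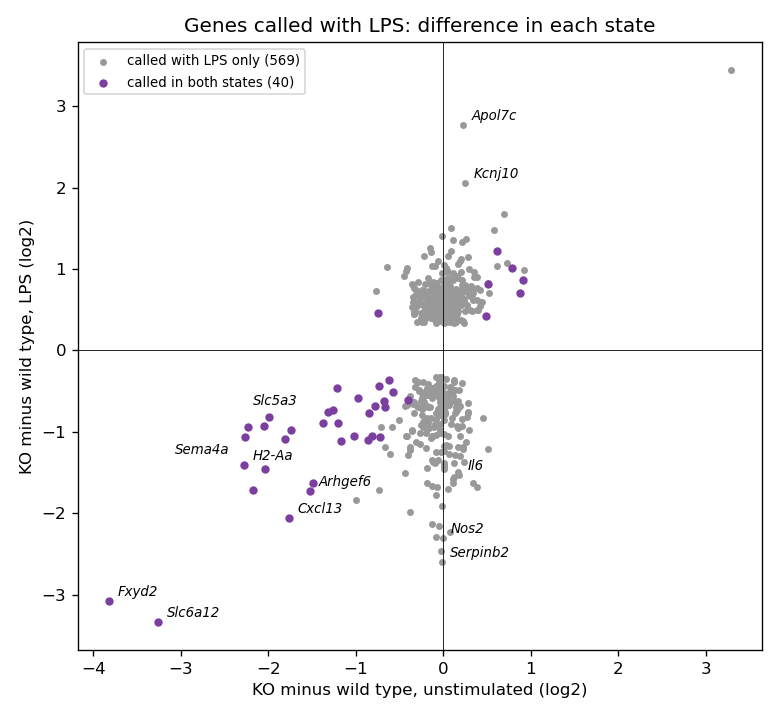
Log2 difference, KO minus wild type, in unstimulated cells (horizontal) and with LPS (vertical) for the 609 genes called with LPS. Purple points are the 40 genes called in both states and grey points the 569 called with LPS only. Il6, Nos2 and Serpinb2 lie near 0 on the horizontal axis, and Slc6a12 and Fxyd2 lie far from 0 on both.

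Sequence in front of the called genes was searched on both strands for 4 motifs, in the 250 bases before each annotated start. Of the 19937 genes, 15613 had an entry in the RefSeq promoter table, with 19176 promoters. The TonE consensus was found in 5.41% of the promoters of genes lower in KO (14 of 259), in 2.95% of those of genes higher in KO (11 of 373) and in 3.77% of all promoters. The kappaB consensus was found in 13.5% (35 of 259), 8.85% (33 of 373) and 8.19%. The AP-1 letters TGANTCA were found in 8.49%, 4.02% and 6.04%. The sterol regulatory element was found in 0 of 259 promoters of the lower genes, 1 of 373 of the higher genes and 31 of all 19176, and in 0 of the 11 promoters of the sterol and fatty acid synthesis genes that were higher in KO. Matches to TonE and kappaB letters can overlap, as both allow a run of GGAAA. Promoters of the lower cytokines and chemokines held a kappaB match in 3 of 15 (Cxcl1, Cxcl3 and Il6), and those of the lower early response genes in 4 of 13 (Egr2, Fosl2, Ier3 and Maff). Of the lower osmotic genes, Slc6a12 and Atp1b3 held a TonE match, in 2 of 13 promoters. These shares are descriptions with no test, and an absent match says only that these letters are not in this window.

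In several genes the wild-type arrays fell into pairs. In Csf3, Osm, Mmp13, Trem1, Upp1 and Ccnd2, wild-type arrays 1 and 2 lay above wild-type arrays 3 and 4, while KO values did not overlap with any of them. Of the 172 named genes that were called, 110 were called without any 1 of the 8 LPS arrays. A fit of the 8 LPS arrays alone called 132, and there Csf2, Ccl22, Ccl7 and Fdps were not called (adjusted p = 0.0503, 0.0838, 0.0688 and 0.0814). With a sex term 123 were called, with the sex term and the replicate block 76, and in the 10 arrays with Xist 36. These 36 included Slc6a12, Fxyd2, Slc5a3, Slc38a2, Lrrc8d, Nos2, Slc7a2, Il6, Il1a, Cxcl1, Fosl2, Phlda1, Serpinb2, Plaur, Olr1, Slc7a11, Fn1, Msmo1, Sqle, Kcnj10, Apol7c, Sesn1, Slc43a2 and Cd300a. All 609 genes kept the direction of their difference in each of the settings that tested them. That was largely fixed in advance, since the genes were chosen on the same arrays and most settings barely change the difference. Genotype and sex-linked transcripts cannot be told apart in KO arrays 1 to 3.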

How the data were processed

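Messenger RNA was measured on 1-channel arrays, 1 biotin-labelled sample per array. Per the labels and notes, the deposited values are log2 expression levels per probe set, summarised by the authors with RMA, as the submitters' processing notes say without a version. Array medians lay between 6.76 and 6.86, and precision is limited by how many arrays there are. There were 34760 probe sets, of which 21640 had 1 gene in the platform annotation, 1321 had several and 11799 are unnamed here. Symbols of 21553 were looked up in a RefSeq table (GRCm38.p6), which changed 0 of them. The brightest probe set over the 16 arrays stood for each of 19937 genes, and 954 genes had several. No arrays were duplicates: within the LPS groups the SD of the difference between arrays was 0.172 to 0.362.

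A linear model with 4 group means was fitted to the 16 arrays (lmFit and eBayes, limma 3.58.1, R 4.3.3; 12 residual degrees of freedom), with Benjamini-Hochberg adjustment over all genes. The code was tested on simulated data. No set test was run. The members and the gene lists were chosen with earlier results of these data known. Named genes were the 25 largest non-overlapping called differences each way, the called members of each list, up to 4 further members per list and 12 fixed genes, some left out for length. Settings tried were other sets of arrays, the replicate number as a block, a sex term, centring, filters on dim genes, the mean of probe sets, an intensity trend and array weights.

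Replicate numbers were read from the titles. With LPS, KO and wild-type arrays that share a number deviated together from their group means (r from 0.186 to 0.518, each above the minimum of 0.1). KO array 1 deviated more closely with wild-type array 2 (r = 0.316) than with wild-type array 1 (0.186), so the pairing is not clear for every number. The numbers were taken to pair the arrays in the fits with a block, and the main model is unpaired.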

Additional observations from a re-analysis of the deposited data

Results flagged for a closer look

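In groups of 4 arrays, a value was marked when its gap to the nearest other value exceeded Dixon's limit for the group's range, which chance alone reaches in about 1 in 20 groups. Among 106 such groups (the LPS groups of 53 genes) this marked 2. Nos2 in KO array 4 with LPS was 8.67, against 7.8 to 7.91 in the other KO arrays. Galc in wild-type array 2 with LPS was 7.61, against 8.08 to 8.16 in the other wild-type arrays.

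The genotype difference changed between states, by limma's test of the LPS difference minus the unstimulated difference, in 32 of the 53 genes, with adjusted p from 5.32e-05 to 0.0471. The 53 include the highest-ranked LPS differences, a selection that favours such calls. It became more negative with LPS for secreted inflammatory proteins, by -1.71 for Il6, -2.07 for Il1a, -1.67 for Csf2, -1.43 for Csf3, -1.21 for Osm and -0.88 for Cxcl1. For early response genes and brakes the change was -1.61 for Fosl2, -1.41 for Nr4a1, -1.34 for Phlda1 and -1.4 for Cish. Among enzymes, proteases and transporters it was -2.29 for Nos2, -2.58 for Serpinb2, -1.66 for Plaur, -1.68 for Mmp13, -2.2 for Upp1 and -1.42 for Slc7a11. For the vasoconstrictor precursor Edn1 and the receptors Trem1 and Olr1 it was -1.53, -2.43 and -2, and for Lcn2 -1.89.

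The change was positive for sterol and lysosomal genes, at 1.35 for Msmo1, 1.43 for Fdft1, 1.14 for Lipa and 0.92 for Galc. Kcnj10 changed by 1.8, Apol7c by 2.54, Sesn1 by 1.42, Slc43a2 by 1.24, Cd300a by 1.12 and Tbc1d8 by 1.41. For Ciita and Slc5a3, which were lower in unstimulated KO cells, it was 2.22 and 1.17.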

How the results depend on the processing

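Against 358 genes higher and 251 lower, the counts were 726 and 503 with a block for the replicate number in 16 arrays, 685 and 464 with that block in the 8 LPS arrays, 895 and 524 with array weights, and 32 and 57 in the 10 arrays with Xist above Kdm5d. With a sex term and the replicate block together, 142 were higher. The other settings stayed within 1.5 times of both counts, apart from leaving out 1 array, which gave 169 to 325 higher and 139 to 287 lower. Genes called in the same direction in unstimulated cells numbered 39, and 68 with the block, 112 with the sex term, 9 in the Xist arrays and 66 with array weights. Lower cytokines, 10 at first, numbered 3 with the sex term and block and 2 in the Xist arrays, and 5 to 13 without 1 array. Lower chemokines went from 9 to 5 with the sex term, 3 with the block added and 1 in the Xist arrays, and to 6 to 10 without 1 array. Early response genes went from 10 to 5 and 2 in the last 2 of those fits, and to 7 to 11 without 1 array. Higher cholesterol synthesis genes went from 10 to 6, 4 and 3 in those fits, to 3 with numbers 1 to 3 only, and to 3 to 10 without 1 array. Osmotic stress genes ranged from 5 to 8 without 1 array. Of 172 named calls, the replicate block in 16 arrays ended 1, Ccl12 (adjusted p = 0.0529), and changed no other. The fits with the sex term and block, the Xist arrays and the block in 8 arrays have 5, 6 and 3 residual degrees of freedom. No named gene reversed, but the genes were chosen on the same arrays. The causes were not tested.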

Other observations

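The called genes were spread over the chromosomes. Among the autosomes and the X chromosome, the share called in either direction was lowest on chromosome 16 (1.85%) and highest on chromosome 19 (4.3%), against 3.05% of all genes, and on the X chromosome it was 2.3% (11 higher and 6 lower of 739 genes). On the Y chromosome, with 9 measured genes, 1 was called, the sex-linked Eif2s3y, and 0 of 2 mitochondrial genes were.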
